A study of Caenorhabditis elegans with 3 samples.

Results

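The genes examined were 10 autophagy genes of the nematode Caenorhabditis elegans: the cargo receptor gene sqst-1, the core machinery genes unc-51, bec-1, atg-18, atg-7, atg-16.1, atg-16.2, lgg-1 and lgg-2, and the late-acting gene epg-5. They were listed by name, with earlier results of these data known. All 10 were on the array, through 14 of the 20766 probe sets that carry a single gene symbol in the platform annotation, and they are 10 of 17118 genes measured. The samples were whole wild-type hermaphrodites, labelled young adult and 3 days old, from synchronised cultures raised on bacteria. One set of worms was the control, another was exposed to GO and another to rGO, abbreviations that the published study behind the series uses for graphene oxide and reduced graphene oxide (the labels name no concentration). Per the labels' protocol, incubation lasted 24 h at 20 °C in a salt medium with no food, so every set, the control included, was without food and no fed sample was compared. Each condition has 1 array, so there is no spread between replicates and no test of any difference, and each value below describes single arrays. A log2 difference of 1 is a 2-fold difference.

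Autophagy is the route by which cytoplasm, organelles and protein aggregates are enclosed in a membrane, the autophagosome, and delivered to the lysosome for breakdown. A kinase complex and a lipid kinase complex start the membrane, a ubiquitin-like conjugation system attaches proteins of the LGG (Atg8) family to it, receptors bind cargo to these proteins, and tethers bring the finished autophagosome to the lysosome. In C. elegans the process is known for clearing protein granules and paternal mitochondria in embryos, for survival without food and for long life. Transcript levels do not measure its rate, and the SQST-1 protein is itself degraded by autophagy.

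The cargo receptor gene and the gene of 1 Atg16 homologue stood highest against the control on both exposed arrays. At or above the floor on dim genes, a log2 value of 6.79 on the brighter array that is the median of all gene values, 9 of the 10 genes could be counted in each comparison, and all 9 reached it on the control array too. On the GO array 2 of these 9, sqst-1 and atg-16.2, exceeded the control array by 2-fold or more, and none fell short of it by that much. The shares among all 9303 genes at the floor were 8.43% higher and 9.76% lower. On the rGO array these 2 genes again exceeded the control by 2-fold and none was lower, where 7.99% of 9097 genes were higher and 9.88% lower. With a smaller size rule of 1.5-fold, 5 of 9 were higher on the GO array (17.8% of all genes) and 7 of 9 on the rGO array (19.1%). The median log2 difference of the 9 genes was 0.63 for GO and 0.79 for rGO, beside medians of 0.03 for all genes in both comparisons. Both comparisons use the same control array and are not independent of each other. Since the 10 genes were chosen with earlier results of these data known, their counts and medians are not independent evidence.

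**Figure D1:**
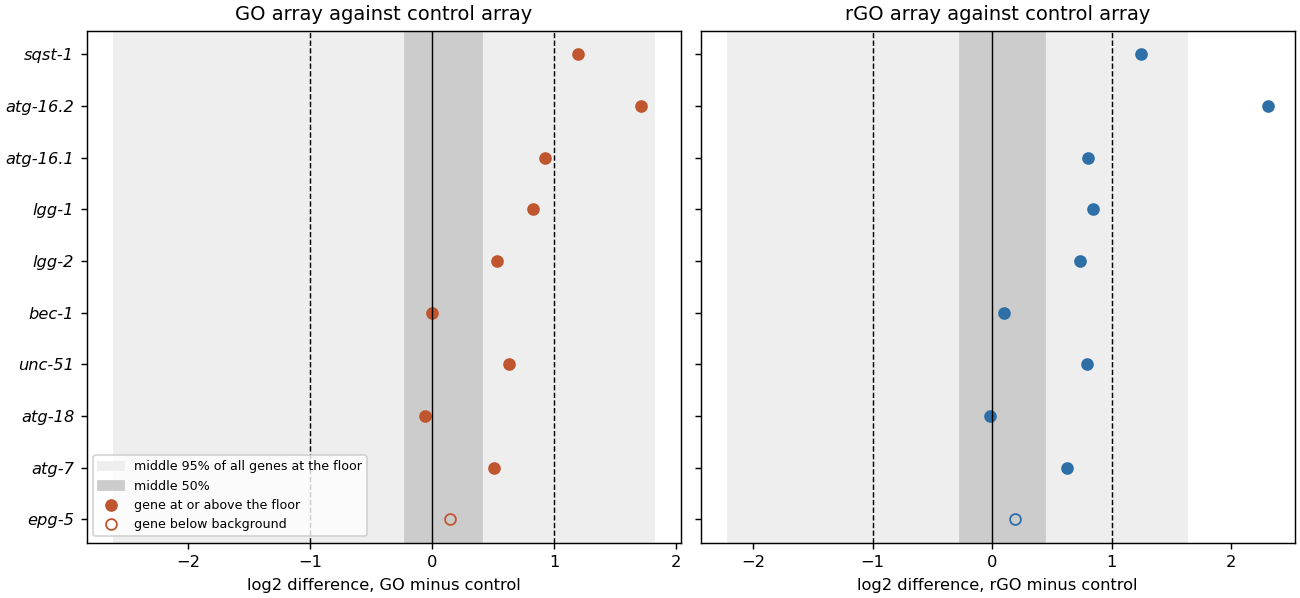
Log2 difference from the control array (x axis) for each of the 10 genes (y axis), with GO at left and rGO at right, 1 array per condition. Grey bands hold the middle 50% and 95% of all genes at the floor, dashed lines mark 2-fold, and open circles mark epg-5, whose signal was below background; sqst-1 and atg-16.2 lie beyond the upper 2-fold line in both panels.

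The cargo receptor gene sqst-1 encodes the homologue of mammalian p62, which binds ubiquitin-tagged proteins and LGG-1. Its mean log2 level was 9.60 (control), 10.80 (GO) and 10.85 (rGO). The control array was thus the lowest and both exposed arrays were nearly level. The folds over the control were 2.29 for GO and 2.37 for rGO. Of the genes at the floor, 6.18% had a difference as high in the GO comparison and 4.89% in the rGO comparison. The gene is read by 2 probe sets. The brighter, which by the maker's naming shares probes between transcripts, gave 10.80, 12.04 and 11.73 in the order control, GO and rGO, and the dimmer gave 8.40, 9.56 and 9.97. Both were higher on each exposed array than on the control array, by 0.93 to 1.56, but they ordered the exposed arrays oppositely.

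Conjugation of LGG proteins to the membrane is directed by a complex of ATG-16 with ATG-5 and LGG-3. The worm has a pair of Atg16 homologues, each read here by 1 probe set that shares probes. For atg-16.2 the log2 level was 7.58 (control), 9.29 (GO) and 9.88 (rGO). The control was lowest and rGO highest, with differences of 1.71 (3.28-fold) for GO and 2.30 (4.94-fold) for rGO. Only 2.98% of the genes at the floor had a GO difference as high and 0.857% an rGO difference as high. For atg-16.1 the level was 6.92, 7.84 and 7.72 in the same order, so the control was again lowest but GO stood slightly above rGO. Its differences of 0.92 and 0.80 were under 2-fold. The difference of atg-16.2 exceeded that of atg-16.1 by 0.79 for GO, and the gap was wider for rGO. Their shared partners were close to the control: atg-5 differed by -0.18 and -0.25, and lgg-3, the Atg12 homologue, had the same value of 11.25 on all 3 arrays. Such exact ties are common after the authors' summary step.

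The Atg8 family of the worm comprises LGG-1 and LGG-2, the proteins that are attached to the autophagosome membrane; LGG-1 belongs to the GABARAP branch and LGG-2 to the LC3 branch. For lgg-1 the log2 level was 12.54 (control), 13.37 (GO) and 13.38 (rGO). The exposed arrays lay together above the control, by 0.83 (1.78-fold) and 0.84 (1.79-fold). For lgg-2 the mean level was 10.93, 11.46 and 11.67, which gave differences of 0.53 and 0.73. Its brighter probe set read 12.10, 12.59 and 12.45 and its dimmer 9.76, 10.34 and 10.88, so the dimmer alone passed 2-fold, on the rGO array (1.12). The lgg-1 difference exceeded that of lgg-2 by 0.29 for GO and 0.11 for rGO. The activating enzyme of this conjugation system is encoded by atg-7, whose level was 9.59 (control), 10.09 (GO) and 10.21 (rGO). Its differences of 0.51 and 0.62 had the same direction as those of lgg-1 and lgg-2 and were under 2-fold.

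The genes that start the membrane were not alike. The kinase gene unc-51, the worm homologue of Atg1 and ULK, which also acts in axon guidance, was read at 7.52 (control), 8.16 (GO) and 8.32 (rGO). It was lowest on the control, by 0.63 (1.55-fold) and 0.79 (1.73-fold). Of 14 neuron marker genes, 11 were at the floor, with medians of 0.85 for GO and 0.75 for rGO, 3 of them at least 2-fold higher and none lower in each comparison; their log2 summed level over all 14 was 12.34, 13.07 and 13.26, with unc-31 and unc-33 not above background on any array. The part of this shift in the unc-51 values was not tested. For bec-1, the Beclin homologue and a subunit of the lipid kinase complex, the probe set above background gave 9.53 on the control and GO arrays, with identical values, and 9.66 on the rGO array. The other bec-1 probe set, which enters the mean of 6.97 by which the gene reached the floor, lay between 4.42 and 4.48, below 6.24, the highest value of 8 probe sets with no expected target. For atg-18, whose product binds the lipid made by that complex, the mean level was 10.64, 10.58 and 10.62, a range of 0.06. For the rGO array this near equality came from averaging: against control the brighter probe set was at -0.51 and the dimmer at 0.47. On the GO array both atg-18 probe sets were themselves close to the control, at -0.14 and 0.02.

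The tether gene epg-5, which brings autophagosomes to late endosomes and lysosomes, had values of 4.15, 4.30 and 4.34 on the control, GO and rGO arrays. All 3 were below the background level, so no fold is given and no statement on this gene can be made.

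Between the exposed arrays, none of the 9 genes differed by 2-fold, where 5.59% of 8978 genes were that much higher with GO and 3.73% lower. At 1.5-fold, atg-16.2 alone was lower with GO than with rGO (-0.59), beside 10% of all genes. The median of the 9 genes was -0.10, against 0.00 for all genes. The direction differed between probe sets. For sqst-1, lgg-2 and atg-18, each read by a brighter and a dimmer probe set above background, GO minus rGO was positive for the brighter (0.31, 0.13 and 0.36) and negative for the dimmer (-0.41, -0.53 and -0.44). The same ordering was found across the array: in 1338 of 1626 genes read by 2 probe sets above background (82.3%) the brighter probe set had the higher GO minus rGO difference, by a median of 0.35. Among 466 genes whose probe sets lay at least 2 units apart it was 90.1%, by a median of 0.48. For rGO against control the brighter probe set had the lower difference in 1319 of 1626 genes, and for GO against control in 975. For 8 pairs of control probe sets that read both ends of a worm transcript, the 3′ end minus the 5′ end had a log2 median of 1.88 (control), 2.57 (GO) and 1.16 (rGO). For 8 such pairs of poly-A control transcripts it was 1.36, 2.14 and 1.56, so against control the rGO gap was narrower for worm transcripts and wider for the added ones. These 8 poly-A pairs are repeat readings of the transcripts dap, lys, phe and thr, each read by 2 pairs. Whether the 8 worm pairs read separate transcripts was not examined. Against their median, the worm catalase and ubiquitin gaps were slightly narrower on GO (4.72 and 4.85) than on control (4.84 and 5.02). The annotation used here does not place the probe sets within transcripts, and the part of the end gap in the rGO values was not tested.

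**Figure D2:**
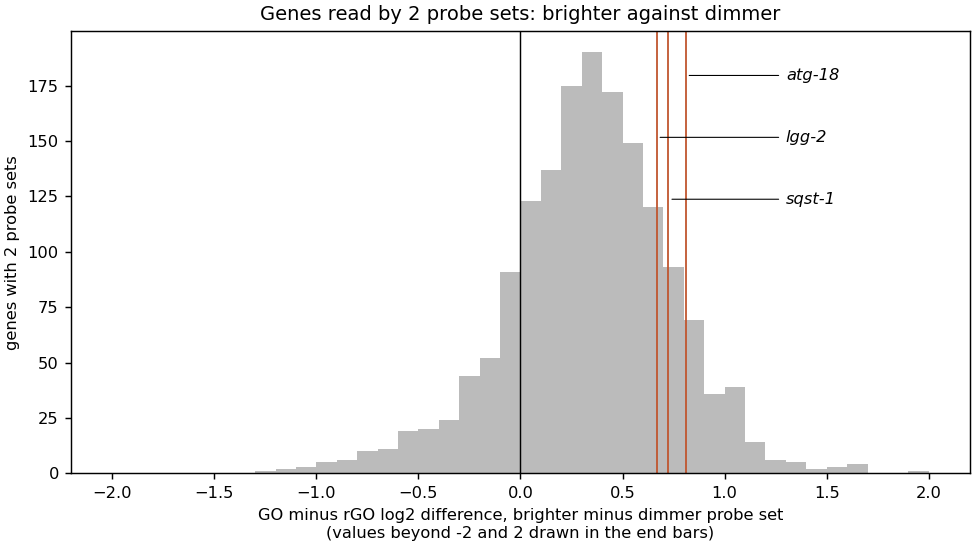
Distribution over 1626 genes read by 2 probe sets above background (y axis, number of genes) of the GO minus rGO log2 difference of the brighter probe set minus that of the dimmer (x axis). Most genes, 82.3%, lie above 0, and sqst-1 (0.72), lgg-2 (0.67) and atg-18 (0.81) are drawn as lines on that side.

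Other genes of the pathway were taken from 7 lists with 68 genes, of which 67 were measured. Of 63 at the floor in the GO comparison, 2 were at least 2-fold higher (epg-2 and lipl-2) and 1 lower (mxl-3), beside 8.43% and 9.76% of all genes. Their median was 0.18, but 0.004 without probe sets that share probes. Of 63 in the rGO comparison, 5 were higher (allo-1, vps-18, lipl-2, lipl-3 and lipl-5) and 2 lower (vha-12 and mxl-3), with a median of 0.25. The shares over all genes were 7.99% and 9.88%. On the rGO array the count of higher genes was thus near that background and the count of lower genes under it. On the GO array both counts were under the shares over all genes. On the control array lipl-2 (6.73) and lipl-3 (6.40) were under the floor, so they were counted only through their exposed arrays. In the complexes to which UNC-51 and BEC-1 belong, all 6 other genes were under 2-fold, the widest differences being those of vps-15 (0.43 on both exposed arrays) and vps-34 (0.42 and 0.25), the regulatory and catalytic subunits of the lipid kinase. Among genes of membrane supply, the WIPI-family gene epg-6 differed by 0.64 and 0.999, just under 2-fold on the rGO array, the lipid transfer gene atg-2 by 0.61 and 0.74, and the membrane protein gene atg-9 by 0.02 and 0.80. The 6 other conjugation genes had medians of 0.00 and -0.04, and all were under 2-fold, unlike atg-16.2. The GO median rests on exact ties, since 4 of these 6 genes had the same value on the GO and control arrays.

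**Figure D3:**
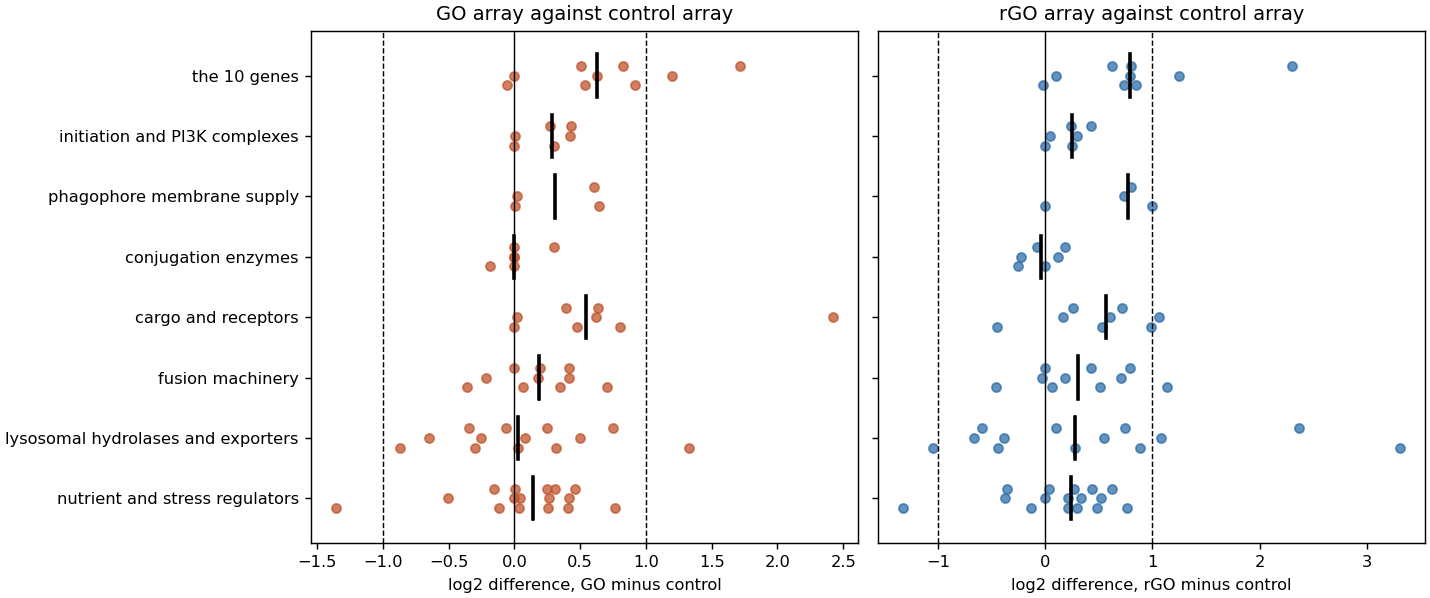
Log2 difference from the control array (x axis) for the 10 autophagy genes and 7 lists of other pathway genes (y axis), 1 point per gene at the floor and a black bar at each median, for GO at left and rGO at right. Medians of the conjugation enzymes are near 0, and the widest points are epg-2 (2.42) on the GO array and the lipase gene lipl-2 (3.31) on the rGO array.

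Of the other cargo and receptor genes, 8 of 9 were measured, with medians of 0.55 for GO and 0.57 for rGO. The scaffold gene epg-2, which in embryos links protein granules to LGG-1, read 7.99 (control), 10.41 (GO) and 8.71 (rGO). GO stood clearly above both others, 5.36-fold above the control. The granule receptor gene sepa-1 read 7.28, 7.90 and 6.83, also highest on the GO array. Most markers of epidermis and embryonic cuticle were higher on that array too: 7 of 10 were at least 2-fold higher and none lower by that much. The others were mlt-10 (0.69), lin-26 (0.30) and elt-3 (-0.03), so the markers did not shift together. Their log2 summed level was 11.11, 13.84 and 11.82, with cut-3, fbn-1 and ptr-4 not above background on the control array. The part of these markers in the epg-2 values was not tested. In whole worms, a change in the number of cells of a type and a change in RNA per cell cannot be told apart. The gene allo-1, for the receptor that marks paternal mitochondria, differed by 0.80 and 1.06, and dct-1, for a mitophagy receptor of the BNIP3 family, by 0.64 and 0.99.

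At the fusion step 10 of 11 genes were at the floor, with medians of 0.19 and 0.30. The tethering complex gene vps-18 read 7.58 (control), 8.28 (GO) and 8.71 (rGO), with rGO 2.19-fold above the control. Its complex partner vps-33.1 differed by 0.19 and 0.79, and the lysosomal membrane gene lmp-1 by 0.41 and 0.71, whereas rab-7, the late endosomal GTPase gene, differed by -0.22 and -0.03.

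The lysosomal lipase genes lipl-2 and lipl-3 showed the widest differences of the pathway lists on the rGO array. For lipl-2 the level was 6.73 (control), 8.06 (GO) and 10.03 (rGO), which is 2.51-fold and 9.89-fold above the control. For lipl-3 it was 6.40, 6.90 and 8.76, with rGO 5.16-fold above the control and GO under 2-fold. The control levels of lipl-2 and lipl-3 lay under the floor of 6.79 and not far above the background level of 6.24. For lipl-5 the level was 9.78, 9.48 and 10.86, so the GO array was the lowest and rGO 2.11-fold above the control. All of these were highest on the rGO array, whereas lipl-1 was lowest there (7.12, 7.14 and 6.52) and lipl-4 was below background on all 3 arrays. The proton pump subunit gene vha-12 differed by -0.87 and -1.05. The transcription factor HLH-30, the TFEB homologue, activates lysosomal and autophagy genes in worms, and MXL-3 represses lysosomal lipase genes when food is present. The mxl-3 level was 8.40 on the control array and 7.05 and 7.08 on the GO and rGO arrays, lower by 2.56-fold and 2.51-fold. The hlh-30 level was 8.60, 8.91 and 8.82, under 2-fold in both comparisons. Intestine markers, in the tissue where these lipases are known to act, had medians of -0.24 and -0.28 over 11 genes, of which 4 (GO) and 2 (rGO) were lower by 2-fold or more and none higher. Their log2 summed level was 14.81, 14.63 and 14.81, none was at or below background, and their part in the lipase values was not tested. The sum is weighted to the brightest marker, asp-1, which differed by 0.25 and 0.54 and is also on the list of lysosomal hydrolases. Near equal sums therefore do not show that the markers were unchanged.

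**Figure D4:**
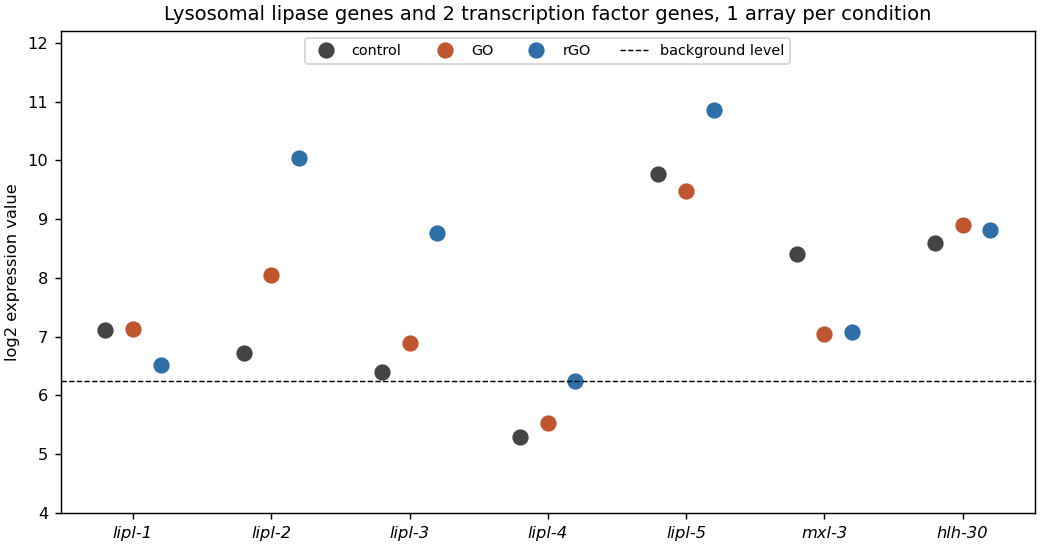
Log2 expression value (y axis) of 5 lysosomal lipase genes and the transcription factor genes mxl-3 and hlh-30 (x axis) on the control, GO and rGO arrays, with the background level dashed. The rGO point is the highest for lipl-2, lipl-3 and lipl-5, and mxl-3 is higher on the control array (8.40) than on both exposed arrays.

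Regulators of nutrient sensing were mostly close to the control. Of 16 genes at the floor, mxl-3 alone was beyond 2-fold. The TOR kinase gene let-363 differed by 0.41 and 0.44, its partner daf-15, the Raptor homologue, by 0.25 and 0.62, and the Rag GTPase gene raga-1 by 0.46 and 0.76. The FoxA factor gene pha-4 differed by 0.77 and 0.52. For lmp-1, daf-15 and let-363 the brighter and dimmer probe sets were more than 1 unit apart on the rGO array against control, at 0.00 and 1.42, -0.05 and 1.29, and -0.16 and 1.04, respectively.

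By the distance between array patterns after subtraction of each gene's mean over the 3 arrays, the nearest genes to sqst-1 among 9453 others were clh-6 (distance 0.01, with a control value of 6.07 that is not above background), lotr-1 (0.02) and faah-4 (0.04). For atg-16.2 they were adah-1 (0.03), srlf-7 (0.05) and F21A3.11 (0.07). With 3 arrays many patterns are close by necessity.

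Several facts of the whole series bear on these values. The arrays had nearly equal medians (6.86 to 6.92). All 24 probe sets of poly-A control transcripts were lower on both exposed arrays than on the control array, by medians of 1.55 and 0.98. They are repeat readings of the transcripts dap, lys, phe and thr. Of 5 measured adult hermaphrodite markers 4, all vitellogenin yolk genes, were under 2-fold against control on both exposed arrays, but the adult collagen gene col-19 read 12.17, 7.97 and 11.26. Sperm markers were lower on both exposed arrays: of 6 at the floor, 5 were lower by 2-fold or more in each comparison, with medians of -3.65 and -1.66. Their log2 summed level was 14.21 (control), 9.75 (GO) and 12.59 (rGO), and 2, 6 and 3 of 8 genes were not above background. Germline and oocyte markers had medians of 0.14 and 0.57 over 8 genes, with 1 beyond 2-fold, glp-1, higher in both comparisons, and summed levels of 14.04, 14.42 and 14.60. All 9 body wall muscle markers were below the control value on the GO array (median -0.52, 2 beyond 2-fold), and their rGO median was 0.06. The part of these shifts in the values of the 10 genes was not tested. Exactly equal values are common after the authors' summary step: 19.3% of all 17118 genes, dim ones included, were identical on the GO and control arrays. At the floor it was 809 of 9303 genes, bec-1 and lgg-3 among them.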

How the data were processed

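Total RNA (300 ng per sample, per the labels) of 3 whole-worm samples was hybridised to 1 Affymetrix array each. Each deposited column holds log2 expression values, 1 per probe set. Per the submitters' processing notes, the authors used GCOS, Affymetrix Expression Console and RMA, with no version given. RMA equalises the arrays' distributions, so a general shift in RNA per worm cannot be seen, and its summary over 3 arrays gives exact ties. Scanner files and detection calls were not used here, and the number of arrays limits the precision.

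Probe sets with 1 symbol in the platform annotation of 2016 were averaged per gene on the log2 scale (22625 probe sets, 77 of them controls, 20766 with 1 gene, 887 with several and 895 with none). Gene identifiers of 20701 matched those of RefSeq (assembly WBcel235), and no symbol changed. A gene entered a comparison where its brighter array reached 6.79, the median of all gene values, and counted as higher or lower from a log2 difference of 1 upward. Named genes are all 10 genes, up to 4 per pathway list with the largest difference against control, any list gene beyond 2-fold, and the 3 nearest patterns to sqst-1 and atg-16.2. Further genes (lipl-1, lipl-4, hlh-30, rab-7, lgg-3, let-363, col-19, glp-1, mlt-10, lin-26, elt-3, asp-1 and the markers not above background) were named after their values were seen. The list gene known as atg-11 was read under its RefSeq symbol epg-7, and pink-1 was not measured by a single-gene probe set. The genes and lists were chosen with earlier results of these data known, so that sqst-1 and atg-16.2 differ is not independent evidence. The comparisons were set side by side without tests, since each condition has 1 array. Promoter motifs and protein identities were not analysed here. The counting steps were tested on simulated data. Python 3.11.15, pandas 2.3.3 and numpy 2.4.6 were used.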

Additional observations from a re-analysis of the deposited data

Results flagged for a closer look

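The lysosomal lipase gene lipl-5 moved in opposite directions on the exposed arrays, at -0.30 against control for GO and 1.08 for rGO, which gave a GO minus rGO difference of -1.37. The difference was not tested, since each condition has 1 array, and the GO value was under 2-fold.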

How the results depend on the processing

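Settings were changed one at a time for the counts and medians of the 9 countable genes and of the other pathway genes, and for each gene's difference. Of 114 values for counts and medians, 108 stayed within 1.5 times the count or within the typical SD of a gene's probe sets. This SD is a measure of probe sets only (medians of 0.20 for GO and 0.33 for rGO against control, and 0.26 between the exposed arrays). It is a wide limit for a median over many genes. The GO median of the other pathway genes (0.18) is smaller than the GO SD, so its fall to 0.004 is among the 108. With the brightest probe set per gene, 1 gene (atg-16.2) was at least 2-fold higher on the rGO array in place of 2, because the brighter sqst-1 probe set was at 0.93. Without probe sets that share probes, 3 of the genes remained countable and 1 (sqst-1) was at least 2-fold higher in each comparison against control; atg-16.2 has no other probe set. At 1.5-fold, 5 genes were higher on the GO array, 7 on the rGO array, and 1 was lower on the GO than on the rGO array. Of 216 single-gene values, 6 moved by more than that SD, all for sqst-1, lgg-2 or atg-18 and all in comparisons with rGO. For the cause, no test was made. Settings that choose or average probe sets could not change genes read by a single probe set. None of these genes had a probe set of several genes, and moving the floor changes no gene's difference. The low number of moves, and the genes in which they occurred, are therefore partly fixed by the design. No difference beyond 2-fold changed sign. The GO median of the other pathway genes was 0.18 and lower in several settings: 0.004 without probe sets that share probes, 0.045 with the brightest probe set, 0.065 with linear averaging, 0.067 with the floor at the 75th percentile, 0.082 with only probe sets above background and 0.107 after a further quantile normalisation. The rGO median was 0.25, and 0.10, 0.11 and 0.18 with the brightest probe set, without probe sets that share probes and with linear averaging. The setting with only probe sets above background was chosen after seeing the data. Leaving out a replicate was not possible with 1 array per condition. Signals under 6.24 limit epg-5, 1 bec-1 probe set and lipl-4.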
